A study of Mus musculus with 6 samples.

Results

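Extracellular matrix genes and regulators of matrix proteolysis were examined in D2.OR, a line of mouse mammary carcinoma cells used as a model of dormant disseminated breast tumour cells. Of the 8 genes, Col1a2, Col15a1, Matn2 and Svep1 encode structural matrix proteins. Adamts12 and Mmp16 encode metalloproteinases, of the ADAMTS and the MMP family, and Reck and Tfpi2 encode protease inhibitors. All 8 were chosen by name, with earlier results of these data known, and each is 1 row of the 53647 features in the deposited table. The cells carried a lentiviral hairpin, either a scrambled one (Scram, n = 3) or one directed at Slx4ip (shSLX4IP, n = 3), and were kept under puromycin selection after transduction. Both groups grew for 7 days in 3D culture on a cushion of Cultrex, an extract of basement membrane, and the medium held 10% serum and 5% Cultrex. The labels call the samples of each group biological replicates. They describe no untransduced cells and do not say whether replicates began as separate transductions or cultures. The p-values thus measure the spread between these libraries, which may be in part technical. The design addresses how loss of SLX4IP, a partner of the nuclease scaffold SLX4, alters the transcriptome.

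The extracellular matrix is a secreted scaffold of collagens, glycoproteins and proteoglycans that cells bind through surface receptors. Fibrillar collagens such as type I give it tensile strength, and matrilins link its filaments. Metalloproteinases of the MMP and ADAMTS families cut matrix proteins, and inhibitors at the cell surface or in the matrix hold that activity back. In mammary tumours type I collagen is mostly a product of stromal fibroblasts, and tumour cells of mesenchymal character can also make it.

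The libraries held 5433573 to 6693111 recovered reads, that is, the whole read numbers behind the deposited normalised counts. The identifiers of the table can be read as genes only in part of the genome. Of 8 genes that every cell uses, looked up by name, the 3 in the readable segments (Rps20, Vcp and Clta) were all well above 0. The 5 outside them (Actb, Eef1a1, Rplp0, Ppia and Eif3e) were at 0 in each library. The segments were set as runs of genes with high values in these same libraries, so high values inside them were partly fixed in advance. The 8 genes lie in segments at the starts of chromosomes 4, 6 and 15, and features in the 4 segments and the mitochondrial genome are called placed below. Slx4ip itself lies outside and was listed at 0 in all 6 libraries, so the depletion could not be checked. Libraries within a group differed by more than counting noise, and Scram A stood apart. In it 1 read stood for a normalised count of 1.46, against 0.796 to 0.976 in the other libraries. It had 8464 features above 0, against 10548 to 11611. The log2 values of placed nuclear genes changed by -0.29 per doubling of exonic length in Scram A, relative to the mean of the 6 libraries, and by between -0.04 and 0.13 in the other 5.

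For orientation, the 250 bases upstream of the RefSeq transcription start are printed for the 4 genes with reads in most libraries that had an entry. RefSeq (GRCm38.p6) held promoters for 6 of the 8 genes. Capitals mark matches on either strand to the CCAAT box (searched as CCAAT), to the GC box (searched as GGGCGG) and to the TATA box (searched as TATAAA), and no match overlaps another in these windows. The CCAAT letters occurred in 33.9% of 32851 RefSeq mouse promoter windows of the same length, those of the GC box in 32.7% and those of the TATA box in 12.4%. The windows are chr6:4505368-4505617 for Col1a2, chr4:43875280-43875529 for Reck, chr15:11064523-11064772 for Adamts12 and chr4:47207762-47208011 for Col15a1, all on the plus strand.
Col1a2: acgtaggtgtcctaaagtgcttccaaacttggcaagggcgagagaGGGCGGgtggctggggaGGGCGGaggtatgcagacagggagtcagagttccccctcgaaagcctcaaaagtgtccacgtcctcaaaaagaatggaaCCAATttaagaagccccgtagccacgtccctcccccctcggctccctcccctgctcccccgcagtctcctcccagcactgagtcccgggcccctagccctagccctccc
Reck: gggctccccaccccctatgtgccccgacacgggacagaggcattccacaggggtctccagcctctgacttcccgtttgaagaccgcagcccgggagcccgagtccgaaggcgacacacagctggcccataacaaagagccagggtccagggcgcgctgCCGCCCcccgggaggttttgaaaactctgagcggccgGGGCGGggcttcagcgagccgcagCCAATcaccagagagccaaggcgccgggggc
Adamts12: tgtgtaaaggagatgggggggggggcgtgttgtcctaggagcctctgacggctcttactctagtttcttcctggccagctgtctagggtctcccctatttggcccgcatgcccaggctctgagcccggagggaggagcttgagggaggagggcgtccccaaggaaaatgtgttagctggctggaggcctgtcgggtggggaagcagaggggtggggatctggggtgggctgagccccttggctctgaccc
Col15a1: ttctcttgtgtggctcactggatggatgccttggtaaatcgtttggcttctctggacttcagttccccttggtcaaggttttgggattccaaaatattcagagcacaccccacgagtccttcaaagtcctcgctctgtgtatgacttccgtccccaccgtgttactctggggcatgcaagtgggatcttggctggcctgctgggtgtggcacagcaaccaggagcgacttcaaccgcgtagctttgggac
The window of Col1a2, the gene with the largest fall in normalised counts of the 8, held 1 CCAAT box and 2 GC box matches. This window is upstream of the RefSeq start only. It lies inside the gene as placed by the annotation used below, which starts at 4504814. Matches near other starts of Col1a2 were not searched, so a motif missing from this window may lie elsewhere. That of Reck, which was higher in shSLX4IP, likewise held 1 and 2, with 1 of its GC boxes on the reverse strand. None of the 3 motifs was found in the windows of Adamts12 and Col15a1. GC content was 62% in the window of Col1a2, 68.4% in that of Reck, 63.2% in that of Adamts12 and 53.6% in that of Col15a1. These matches describe letters and are not evidence of binding.

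Of the 8 genes, 5 had a mean normalised count of at least 10 over the 6 libraries and were tested. Col1a2 and Matn2 fell in shSLX4IP. Reck rose close to the threshold (limma adjusted p = 0.0437) and did not pass in 10 of 19 other settings of the analysis. Col15a1 and Adamts12 had higher values in shSLX4IP without passing the test (limma adjusted p = 0.0587 and 0.0652). They passed in 7 of 18 and 7 of 19 other settings, so the threshold does not clearly part these 3 genes. Mmp16 was at most 4 reads in any library, and Svep1 and Tfpi2 were listed at 0 in all 6. The test was limma on log2(value + 1) across all 8127 features with that mean, with Benjamini-Hochberg adjustment and a threshold of 0.05, and fold changes are shSLX4IP over Scram on that scale. The same test called 23% of all features (11.7% higher and 11.3% lower) and 40.3% of the 462 placed ones (17.3% higher and 22.9% lower), so 3 of 5 is to be read against a wide change in these libraries. The groups did not overlap for any of the 5 tested genes, 2 lower and 3 higher in shSLX4IP. The same held for 53.5% of all features tested (30.2% higher and 23.4% lower) and for 67.1% of placed ones (27.7% higher and 39.4% lower). The median log2 fold change of the 5 was 1.31, the value of Reck, against 0.25 over all features and -0.23 over placed ones. The 5 values ran from -8.10 (Matn2) to 4.46 (Adamts12), so this median does not describe a common shift. Matn2 and Col15a1 entered the test through 1 group alone, having a mean under 10 in the other.

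**Figure D1:**
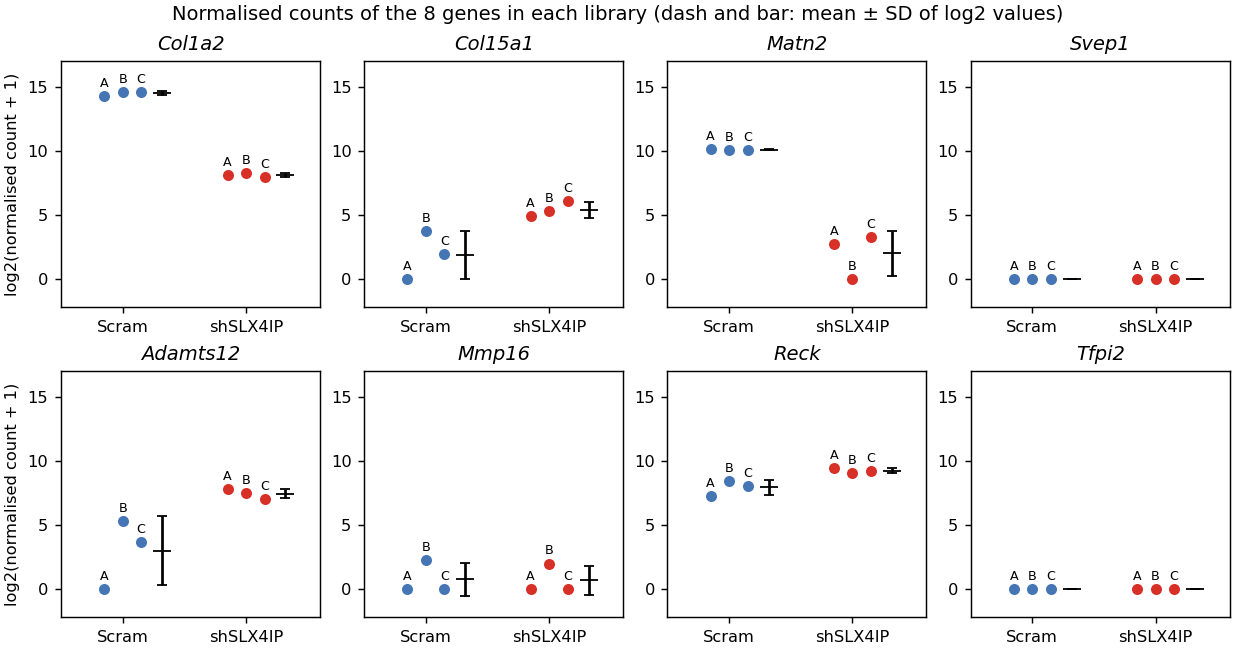
Normalised counts of the 8 genes on a log2(value + 1) axis, with 1 point per library (A, B and C of each group) and the mean ± SD of the log2 values as a dash and bar. Col1a2 and Matn2 sit higher in all 3 Scram libraries, Reck, Adamts12 and Col15a1 sit higher in all 3 shSLX4IP libraries, and Svep1 and Tfpi2 lie at 0.

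Among the structural genes, the one for a chain of type I collagen fell to a small part of its level in Scram. Col1a2 (ENSMUSG00000029661.17, chromosome 6, 4504814 to 4541544, plus strand, GRCm38) had a normalised count of 20226 in Scram A, 24482 in Scram B and 25022 in Scram C. Libraries A to C of shSLX4IP gave 273, 302 and 239. The 2 groups were far apart, and within each the libraries lay close together after scaling. The means were 23243 ± 2627 and 271 ± 31.4 (SD, n = 3 per group), a ratio of 85.8 of Scram over shSLX4IP (log2 fold change -6.42, SE 0.16, limma adjusted p = 7.64e-05). As reads, the 3 Scram libraries gave 67473 and the 3 shSLX4IP libraries 910, so the lower level was itself well counted. Col1a2 took 0.226% of the reads of Scram A, 0.429% of Scram B and 0.419% of Scram C. In shSLX4IP its share was between 0.00448% and 0.00569%. Among 1530 placed nuclear features it ranked 7 to 19 by normalised count in the Scram libraries and 312 to 314 in shSLX4IP. In bulk RNA, fewer cells that express a gene cannot be told apart from less transcript per cell, here and for each gene below.

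The matrix adapter gene Matn2 was nearly absent from shSLX4IP. Matn2 (ENSMUSG00000022324.16, chromosome 15, 34306677 to 34436273, plus strand) encodes a matrilin, an oligomeric protein that bridges collagen and other filaments. Its normalised counts were 1139, 1067 and 1058 in libraries A to C of Scram. Those of shSLX4IP gave 5.44, 0 and 8.76. Scram libraries thus agreed closely after scaling, on 778, 1142 and 1161 reads in A to C. The shSLX4IP libraries lay near the detection limit with 6, 0 and 11 reads, against 3081 reads in the 3 Scram libraries. The means were 1088 ± 44.5 and 4.73 ± 4.42 (SD, n = 3 per group), and limma gave a log2 fold change of -8.10 (SE 0.88, adjusted p = 0.00286). At so low a level the fold change moves with the pseudocount, from -6.93 with 5 to -8.49 with 0.5. It also moves with single libraries, to -7.10 without shSLX4IP B and -8.75 without shSLX4IP C, and passed in each case. Exons of Matn2 overlap those of 9430069I07Rik on the opposite strand by 70 bases, and reads there could not be assigned if strand was not used in counting.

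Col15a1 had higher values in shSLX4IP than in Scram, at a level near detection. Col15a1 (ENSMUSG00000028339.18, chromosome 4, 47208161 to 47313167, plus strand) encodes type XV collagen, which sits at the border of basement membranes and is processed into an anti-angiogenic fragment. Its normalised counts were 0, 12.1 and 2.73 in libraries A to C of Scram. Those of shSLX4IP were at 28.1, 37.1 and 66.9. Each shSLX4IP library exceeded each Scram library, on 153 reads against 16. The means were 4.96 ± 6.37 and 44.0 ± 20.3 (SD, n = 3 each), and the log2 fold change of 3.53 (SE 1.03) did not pass (limma adjusted p = 0.0587). Exons of Col15a1 overlap those of the antisense gene Gm12426 by 14 bases, with the same limit as for Matn2. The value in Scram A, the library that stood apart, was 0. The fold change was 2.59 without Scram A (adjusted p = 0.0390) and 4.45 without Scram B (adjusted p = 0.0241), and it passed in both cases. Without Scram A the same test called 1945 of 8199 features higher, and without Scram B 1120 of 8119, against 952 of 8127 with all libraries. Over all other settings in which Col15a1 was tested the adjusted p lay between 0.00657 and 0.184.

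Svep1 gave no signal. Svep1 (ENSMUSG00000028369.16, chromosome 4, 58042442 to 58206859, minus strand) encodes a large secreted multidomain protein that binds integrin alpha9 beta1 and takes part in lymphatic development. It was listed at 0 in all 6 libraries. A count of 0 allows up to 3 reads, which correspond to a normalised count of 2.39 (shSLX4IP C) to 4.39 (Scram A) depending on the library, a limit for counting error only. Expression below that was not detectable at this depth.

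Of the metalloproteinase genes, Adamts12 was the one with reads to compare. Adamts12 (ENSMUSG00000047497.11, chromosome 15, 11064790 to 11349231, plus strand) encodes a secreted ADAMTS protease that can cut cartilage oligomeric matrix protein. Libraries A to C had normalised counts of 0, 37.4 and 11.8 in the Scram group. In the shSLX4IP group they had 217, 181 and 131. The lowest shSLX4IP library was above the highest Scram library, and the spread within Scram was as wide as its mean. The means were 16.4 ± 19.1 and 176 ± 43.6 (SD, n = 3 each), from 53 and 589 reads. The log2 fold change of 4.46 (SE 1.34) did not pass (limma adjusted p = 0.0652). It was 2.97 without Scram A (adjusted p = 0.0110) and 5.60 without Scram B (adjusted p = 0.0327), and passed in both cases. These passes are to be read against the counts of features called higher given for Col15a1. The adjusted p of Adamts12 over all other settings ranged from 0.00464 to 0.186.

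Mmp16 was close to absent in both groups. Mmp16 (ENSMUSG00000028226.16, chromosome 4, 17852893 to 18119145, plus strand) encodes a membrane-anchored MMP that activates the gelatinase proMMP2. Scram B had 4 reads and shSLX4IP B had 3, normalised counts of 3.74 and 2.93, and the other 4 libraries were at 0. The gene was not tested, and a difference between groups was not detectable at this depth.

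Of the inhibitors, Reck rose and Tfpi2 was not detected. Reck (ENSMUSG00000028476.14, chromosome 4, 43875530 to 43944806, plus strand) encodes a GPI-anchored glycoprotein of the cell surface that restrains several MMPs and serves as a co-receptor for Wnt7 ligands. Libraries A to C had normalised counts of 152, 348 and 263 in the Scram group. In the shSLX4IP group they had 683, 541 and 578. All shSLX4IP libraries were above all Scram libraries, among which Scram A was lowest. The means were 255 ± 98.4 and 601 ± 73.8 (SD, n = 3 each), a ratio of 2.36 (log2 fold change 1.31, SE 0.34, limma adjusted p = 0.0437). This call lay close to the threshold. In 10 of 19 other settings Reck did not pass, such as when Scram C was left out (1.37, adjusted p = 0.0996), or shSLX4IP A (1.21, adjusted p = 0.148), shSLX4IP B (1.38, adjusted p = 0.122) or shSLX4IP C (1.33, adjusted p = 0.133), and with edgeR on the recovered reads (1.22, adjusted p = 0.0727). The fold change was positive in all 19, between 0.98 and 1.65, with adjusted p from 0.00148 to 0.148. Tfpi2 (ENSMUSG00000029664.11, chromosome 6, 3962595 to 3988919, minus strand) encodes a Kunitz-type serine protease inhibitor deposited in the matrix. It was listed at 0 in all 6 libraries, with the same detection limit as Svep1 and the same condition on that limit.

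**Figure D2:**
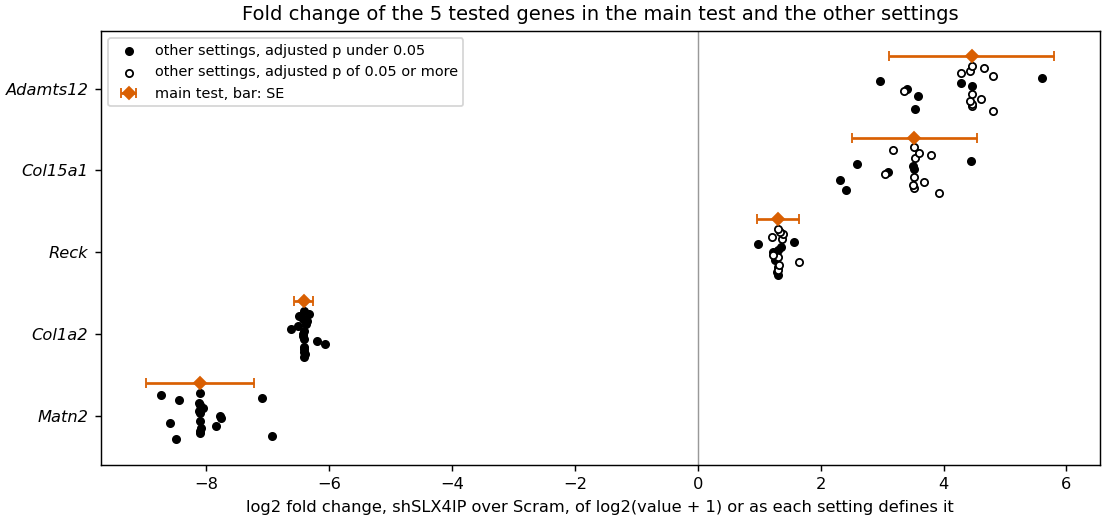
Log2 fold change of the 5 tested genes in the main limma test (diamond, bar: SE) and in the other settings (circles, filled where the adjusted p was under 0.05), on a linear axis. Col1a2 and Matn2 are filled throughout on the negative side, and Reck, Col15a1 and Adamts12 are on the positive side with filled and open circles mixed.

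The order of the levels differed between the groups. Per kb of annotated exon, which allows comparison between genes, Col1a2 was highest in Scram at 1871 ± 211 normalised counts per kb (SD, n = 3), followed by Matn2 at 174 ± 7.11 and Reck at 53.3 ± 20.6. The ranges of these 3 over libraries did not overlap. Adamts12 (1.50 ± 1.75), Col15a1 (0.781 ± 1.00) and Mmp16 (0.144 ± 0.249) followed, and each overlapped the next in range. In shSLX4IP Reck was highest at 126 ± 15.4 normalised counts per kb, above Col1a2 at 21.8 ± 2.53 without overlap. Col1a2 overlapped Adamts12, at 16.1 ± 3.99, in range. Col15a1 came below at 6.93 ± 3.20, and Matn2 (0.755 ± 0.706) and Mmp16 (0.113 ± 0.195) overlapped each other. The most abundant matrix message in the scrambled cells was thus that of type I collagen, and in shSLX4IP cells that of the MMP inhibitor Reck, among these 8 genes. The exonic length is the union of annotated exons and not the length of the isoform the cells express.

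**Figure D3:**
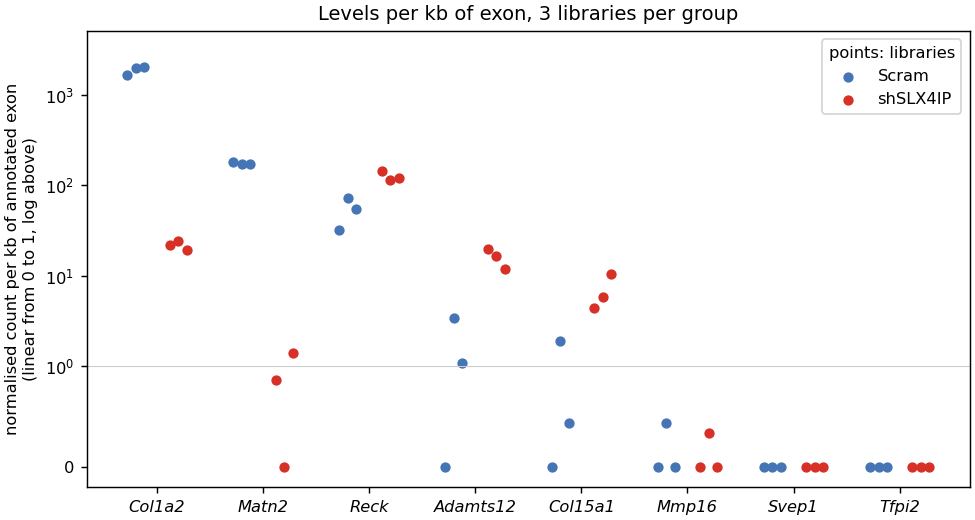
Normalised count per kb of annotated exon for each of the 8 genes, 1 point per library, on an axis that is linear from 0 to 1 and logarithmic above. Col1a2 leads in Scram with libraries from 1628 to 2014, and Reck leads in shSLX4IP with libraries from 113 to 143.

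The wider matrix list, also chosen with earlier results of these data known, held 432 names. They covered collagens, glycoproteins, proteoglycans, proteases, inhibitors, receptors, and genes of matrix processing and hyaluronan, and 22 of them were placed. Of these 22, 9 were listed at 0 in every library, 5 had reads but a mean under 10, and 8 were tested. Of the 8 tested, 1 rose (Reck) and 4 fell (Col1a2, Matn2, Colec12 and Creb3), where the same test called 17.3% of the placed features tested higher and 22.9% lower. The count of higher genes on this list was 0 in 10 of 19 other settings and 3 in 7. Apart from the 8 genes described above, 14 were placed and 3 tested (Colec12, Creb3 and Asph), of which 2 fell and Asph did not pass. Colec12 (chromosome 18, 9707595 to 9882644), a collectin scavenger receptor that carries a collagen-like domain, had normalised counts of 3128, 3469 and 3354 in libraries A to C of Scram. Those of shSLX4IP held 16.3, 25.4 and 50.2 (log2 fold change -6.86, SE 0.41, limma adjusted p = 0.000506). Its fall was close in size to that of Col1a2, and the difference between the genes was not tested.

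Creb3, on the list under matrix processing and hyaluronan, encodes a transcription factor cleaved in the Golgi, of a family with roles in secretion. It is thus not itself a matrix protein or an enzyme that processes one. Its normalised counts were 5920, 2408 and 2574 in libraries A to C of Scram, against 1121, 1079 and 966 in those of shSLX4IP (log2 fold change -1.66, SE 0.37, limma adjusted p = 0.0286). Scram A was the highest library. The log2 fold change was -1.24 without it (adjusted p = 0.000872), and it no longer passed when Scram C or a shSLX4IP library was left out (-1.84 to -1.59, adjusted p from 0.0539 to 0.110). Exons of Creb3 overlap those of Tln1 and Gba2 on the opposite strand. Asph, which hydroxylates EGF-like domains of secreted and membrane proteins, was at 4563 ± 698 and 4782 ± 164 (SD, n = 3 per group) and did not pass, with a log2 fold change of 0.08 (SE 0.15, limma adjusted p = 0.711). The growth factor binding protein gene Igfbpl1 was at 5.86, 13.1 and 14.6 in the Scram libraries and listed at 0 in shSLX4IP, below the mean needed for a test. The syndecan gene Sdc2, the sarcoglycan gene Sgce and the collagen gene Col28a1 did not exceed 15.6 in any library. Hyaluronidase genes (Hyal4, Hyal5, Hyal6 and Spam1), Ptprz1, Thsd7a and Vwde were listed at 0 throughout.

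**Figure D4:**
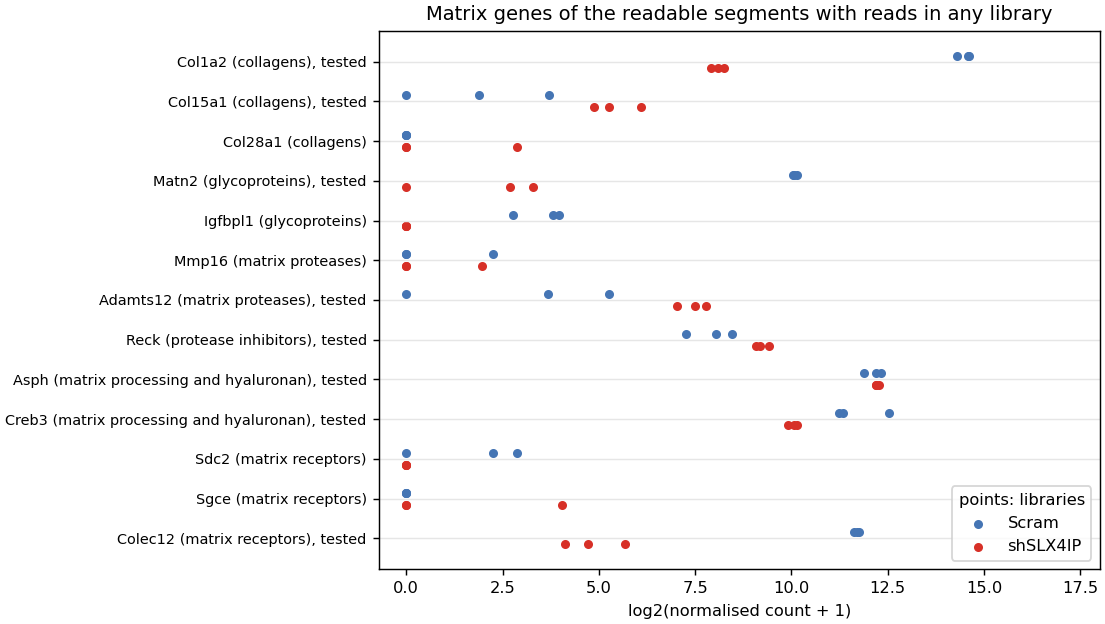
Normalised counts on a log2(value + 1) axis for the 13 placed genes of the wider matrix list with reads in any library, 3 points per group, with the role of each gene in brackets. Col1a2, Matn2, Igfbpl1, Creb3 and Colec12 lie lower in shSLX4IP and Reck, Col15a1 and Adamts12 higher, while the points of Asph overlap.

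Markers of cell types were read beside these genes, through the few that were placed. Of 16 fibroblast markers 2 were placed, Col1a2 itself and Cdh6, and Cdh6 was listed at 0 throughout. Of 19 epithelial markers 3 were placed (Esrp1, Grhl2 and Cdh17), all with reads, and their summed normalised counts were 221 to 238 in Scram and 27.3 to 55.3 in shSLX4IP. In Scram most of that sum was Cdh17, with a mean of 173 against 24.3 in shSLX4IP. Cdh17 passed the test as lower (limma adjusted p = 0.00518). Grhl2 did not pass and Esrp1 was not tested, and the values of both overlapped between the groups. Of 16 immune markers 6 were placed and 4 had reads, with sums of 67.4 to 110 in Scram and 17.6 to 41.4 in shSLX4IP, and Ccl19 and Ccl21a were at 0. Both tested members of that list, Cd72 and Pax5, did not pass (limma adjusted p = 0.112 and 0.0834). Sit1 and Ccl27a were too low to be tested. Ccl27a went against the direction of the sum, with a mean of 0.934 in Scram and 3.42 in shSLX4IP. Of 8 muscle markers 2 were placed, with sums of 87.8 to 256 in Scram and 1215 to 1556 in shSLX4IP. Nearly all of that was Tpm2, a tropomyosin also found in mesenchymal cells, which rose (limma adjusted p = 0.00545), while Musk was at or near 0. No endothelial marker of 9 was placed. The part of these marker changes in the values of the matrix genes was not tested. The keratins and Epcam, which define mammary epithelium, lie outside the placed segments, so the labelled cell type could not be checked through them.

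The placed genes most like Col1a2 over the 6 libraries, by Pearson correlation of log2(value + 1) among 385 named genes, were Otud6b, a deubiquitinase gene, Cav1, the caveolin gene, and Fzd8, a Wnt receptor gene (r = 0.999 for each). With 2 separate groups such a correlation mostly reflects the group difference and libraries share their scaling, so it is given as a description. Otud6b was at 3506 ± 48.5 and 1495 ± 41.4, Cav1 at 21100 ± 195 and 13833 ± 365, and Fzd8 at 141 ± 15.6 and listed at 0 (SD, n = 3 in Scram and in shSLX4IP). The measure compares shape and not size. The log2 fold change was -1.23 for Otud6b and -0.61 for Cav1, whose call (limma adjusted p = 0.00847) did not hold in 7 of 19 other settings and whose fold change was -0.02 after quantile normalization.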

How the data were processed

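RNA of 6 samples, 3 per group, went into stranded mRNA libraries (input 1 µg), per the labels' protocols. Tools listed in the submitters' processing notes are DESeq2 (1.22.1), StringTie (2.1.7), STAR (2.7.7) and fastp (0.19.5), without roles, with mm10 (GRCm38) as build. Annotation release, strand setting and filters were not given in the sources used here. Values deposited by the authors are a normalised signal per gene, with each library's read counts divided by its own size factor. Dividing each column by its lowest step gave whole reads (within 0.1) for 99.98% to 100% of values above 0.

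Of the 53647 identifiers, 52093 matched GENCODE M21 (GRCm38) without version and 35 with version. Readable segments were maximal-scoring runs of protein-coding genes, scoring 3 for a mean of at least 1000 and -1 otherwise, with a score of at least 30. This rule was set on the values, over all 6 libraries without regard to group. Coordinates, exonic lengths and overlaps are those of M21.

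Features with a mean of at least 10 were tested with limma 3.58.1 (R 4.3.3), intensity trend, 2-sided on log2(value + 1). That scale pulls the fold change of a low gene toward 0, while a library at 0 within a group can widen it: Adamts12 was 4.46 on it and 3.41 with DESeq2. edgeR 4.0.16 and DESeq2 1.42.0 on the recovered reads were alternatives, beside other pseudocounts, filters and scalings, removal of an exonic length trend, omission of each library and a block on the column letter. The 8 genes and the wider list were chosen with earlier results of these data known. Named genes were the 8, Slx4ip, tested and called genes of the wider list, and the 3 most like Col1a2. Asph and the genes of the wider list that were not called, and the marker genes, are named to account for their lists. No pair of libraries in a group was as close as counting noise, with chi-square per degree of freedom from 20.7 to 187.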

Additional observations from a re-analysis of the deposited data

How the results depend on the processing

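Col1a2 and Matn2 kept their direction and their call in all 19 other settings, with log2 fold changes from -6.62 to -6.07 and from -8.75 to -6.93. The count of lower genes among the 8 was 2 in each setting, and that in the wider list stayed within 1.5 times of 4. No fold change of the 5 tested genes reversed. Colec12, Cdh17, Tpm2, Otud6b and Fzd8 also kept their calls in all 19. Otud6b and Fzd8 were picked for their likeness to Col1a2 over these same libraries, so their calls are not separate support. Fzd8, listed at 0 in shSLX4IP, entered the test through Scram alone. Reck lost its call without a filter on low values (1.31, adjusted p = 0.0613), with TMM factors (1.31, 0.0565), with scaling to the library total (1.65, 0.0638), with limma without the trend (1.31, 0.0621) and with edgeR (1.22, 0.0727). Without 1 library its fold change lay between 0.98 and 1.57.

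Col15a1 passed with a pseudocount of 5 (2.41, adjusted p = 0.0306), after quantile normalization (2.32, 0.0323), with DESeq2 (3.10, 0.00657), when adjusted over placed features (3.53, 0.0334) and with the length trend removed (3.50, 0.0200), and lay between 2.59 and 4.45 without 1 library. Adamts12 passed in the same settings, with 3.54, 3.58, 3.41, 4.46 and 4.28 (adjusted p from 0.00464 to 0.0377), and lay between 2.97 and 5.60 without 1 library. In these 5 settings 3 of the 8 genes, and 3 of the wider list, were called higher, and 0 in the 5 settings in which Reck was lost, against 1 in the main test. Without 1 library these counts were 0 to 3, with 3 without Scram A or Scram B and 0 without Scram C or any shSLX4IP library. The cause was not tested.

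Scaling to the library total moved the median log2 fold change of all features from 0.25 to 0.58, and quantile normalization moved it to -0.0028. Relative to that median, Reck was at 1.06 in the main test, 1.07 and 1.26. DESeq2 called 1602 features higher and 1624 lower, against 952 and 920. Without 1 library the counts were 400 to 1945 higher and 414 to 1560 lower, with the highest counts of each without Scram A.

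With a mean of at least 50 Col15a1 was not tested. The columns of both groups carry the letters A to C, which nothing ties to the replicate numbers of the labels. Libraries with the same letter did not deviate together (correlations of deviations from the group means over 8127 features from -0.021 to -0.00073), so the letter was not taken as a pairing. A limma fit with the letter as a replicate block, chosen after seeing the data, called 365 features higher and 309 lower. Of the 8 genes it called 0 higher and 2 lower (Reck at 1.31, adjusted p = 0.118), and of the wider list 0 and 3. Creb3 (adjusted p = 0.0617) and Cav1 (0.0845) did not pass in it. Levels under 3 reads, as for Svep1, Tfpi2 and Mmp16 in most libraries, limit what can be said of those genes. Svep1 and Tfpi2, without reads in any library, could only be at 0 in each setting. The untested difference of Mmp16 took either sign when 1 library was left out (-0.75 to 0.66).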
